A study of Mus musculus with 4 samples.

Results

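The genes described here are 34 neutrophil genes: proteins of neutrophil granules, cytosolic and secreted proteins of maturing neutrophils, their surface receptors, and the factors and ligand that steer their formation. They were taken by name from a list, as rows of the gene table whose symbol equals a member, and 33 of the 34 were measured among 24394 genes. The expression of Ly6g was not analysed here, since no row carries that symbol. Polyadenylated RNA was sequenced from 4 C57BL/6 mice aged 8 weeks, with colon given as the tissue. Every mouse had received dextran sulfate sodium (DSS), a chemical that injures the gut lining, at 2.5% for 5 days and then plain water for 2 days. In 2 of them Usp25, the gene of a ubiquitin-specific protease, was intact (Usp25+/+, WT-139 with WT-140), while in the other 2 it was deleted (Usp25-/-, mice KO-826 and KO-850). No untreated mouse is among these libraries, so no level without DSS can be set beside these values. Levels are FPKM, fragment numbers scaled to the length of the transcript and to the mapped fragments of the library, which can be compared between genes because they are scaled to length. Unless stated otherwise, 4 values in a row belong first to WT-139 and WT-140, then to KO-826 and lastly to KO-850.

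Neutrophils form in the bone marrow through stages that differ in the messenger RNAs they hold. Promyelocytes make the proteins of the primary granules, among them myeloperoxidase and the serine proteases. Myelocytes and metamyelocytes switch to the proteins of secondary granules, and later cells add tertiary granule proteins, chemoattractant receptors and large amounts of S100a8 and S100a9. G-CSF, encoded by Csf3, drives the process through its receptor Csf3r. In an inflamed colon, neutrophils that enter from blood are mostly mature. The members were grouped on this basis into 4 early genes (primary granule), 2 transcription factors, 8 middle genes (secondary and tertiary granule or secreted), 19 late genes (maturing and mature cells) and the ligand Csf3.

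In these genes 1 library, that of WT-139, differed widely from the rest, and results are therefore given with and without it. The 33 measured members together made up 9.81% of the summed FPKM of its library, and 0.252%, 0.509% and 0.364% of those of WT-140, KO-826 and KO-850. Usp25 itself followed the labels, with 38.5 and 16.6 FPKM where it was intact against 2.65 and 1.71 FPKM where it was deleted. The labelled tissue did not match its own markers well. Of 8 genes listed for colon epithelium, 6 stayed below 1 FPKM in every mouse, Zg16 and Aqp8 among them at 0, and the other 2, Lgals4 and Krt20, were highest in mouse KO-826 at 70.6 and 52.4 FPKM. By contrast all 6 genes listed for lung epithelium reached 1 FPKM in at least 2 mice. The most abundant were the surfactant genes Sftpb, at 865 to 3284 FPKM, and Sftpc, at 339 to 2596 FPKM, and the airway gene Scgb1a1, at 219 to 741 FPKM. The libraries are called colon here by their label alone. In bulk tissue, fewer cells of a type and less RNA per cell cannot be told apart.

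Transcripts of the primary granule were near the floor in every library. Mpo, the myeloperoxidase that makes hypochlorous acid, stood at 0.215, 0.131, 0.338 and 0.404 FPKM. Elane, neutrophil elastase, stood at 0.648, 0.155, 0.122 and 0 FPKM. Ctsg, the protease cathepsin G, had 0.293 FPKM in WT-139 and 0.359 FPKM in KO-826, and was listed at 0 in mice WT-140 and KO-850. These 3 genes did not reach 1 FPKM in any mouse, so they were not tested. Prtn3, proteinase 3, stood at 1.28, 0, 1.14 and 2.19 FPKM, the highest of the 4 genes in each mouse except WT-140. Prtn3 (chromosome 10, 79337221 to 79345919) and Elane (79349057 to 79350961) are neighbours on the plus strand of the mm9 build. The 4 genes summed to 2.43, 0.286, 1.96 and 2.59 FPKM, so mouse WT-139 did not stand above both Usp25-/- mice in this sum. Prtn3 weighs most in it, except in mouse WT-140. The median of the 4 genes, 0.470, 0.0657, 0.349 and 0.202 FPKM, was highest in mouse WT-139. By gene, mouse WT-139 was the highest in 1 of the 4 (Elane).

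Both transcription factors of granulocyte formation were also low. Gfi1, a repressor that acts early in the lineage, stood at 1.04, 0.0983, 0.124 and 0 FPKM. Cebpe, the C/EBP factor needed for secondary granules, stood at 1.44, 0.494, 0 and 0.310 FPKM. Each had its highest value in mouse WT-139, and neither was tested, since 1 mouse alone reached 1 FPKM. The list of other early neutrophil genes was mixed, and 3 of its 8 genes stayed below 1 FPKM in every mouse. Ms4a3 and Prss57, genes of granulocyte precursors, are among these 3 and did not exceed 0.357 and 0.255 FPKM. Its more abundant genes are not particular to neutrophils. Serpinb1a, an inhibitor of neutrophil proteases, stood at 21.5, 55.5, 34.4 and 30.8 FPKM, and Cd34, which blood vessels express as well, at 15.1, 32.2, 15.8 and 32.8 FPKM. Cebpa, a C/EBP factor that macrophages and alveolar cells express too, stood at 31.6, 63.6, 53.4 and 4.31 FPKM, with its lowest value in mouse KO-850. Of the 8 genes 3 were higher and 5 lower in Usp25-/- mice, both with and without mouse WT-139, and limma called 0, with 0 at an unadjusted p under 0.05.

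Of the 8 genes of secondary and tertiary granules 7 were highest in mouse WT-139, and their levels in the other mice ran from 0 FPKM for Camp to 280.6 FPKM for Lrg1. Ltf, the iron-binding lactoferrin, stood at 1417, 50.1, 108 and 56.4 FPKM. Lcn2, lipocalin 2, which binds bacterial siderophores and is made by injured epithelium as well, stood at 5537, 86.7, 82.8 and 104.7 FPKM. In both genes the level in mouse WT-139 was far above the rest, and mouse WT-140 lay close to the Usp25-/- mice. Ngp, neutrophilic granule protein, stood at 222, 2.06, 8.58 and 4.33 FPKM. Camp, the precursor of the antimicrobial peptide cathelicidin, stood at 21.7, 0, 1.95 and 0.195 FPKM. Camp was thus the lowest of the 8 in each mouse, while both it and Ngp had mouse WT-140 at the bottom. These 3 secondary granule genes lie on chromosome 9 in mm9, Camp from 109749889 to 109751970, Ngp from 110322254 to 110325514 and Ltf from 110921796 to 110945270.

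Chil1, a chitinase-like protein, stood at 543, 58.2, 39.3 and 67.1 FPKM. Cd177, a surface glycoprotein stored in granules, stood at 147, 5.46, 9.76 and 9.63 FPKM. Pglyrp1, a peptidoglycan recognition protein, stood at 328, 16.3, 81.4 and 43.7 FPKM, so both Usp25-/- mice lay between the Usp25+/+ mice. Lrg1, a secreted leucine-rich glycoprotein that liver and endothelium also make, was the exception. It stood at 166, 280.6, 190.5 and 232 FPKM, lowest in mouse WT-139 and highest in mouse WT-140. The liver genes Alb, Apoa1 and Ttr did not exceed 0.282, 0.601 and 1.76 FPKM.

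The order of these genes differed between mice even where each was detected. Lcn2 was 3.91 times as high as Ltf in mouse WT-139, and 1.73, 0.766 and 1.85 times as high in the other 3. Lrg1 was at 0.030 times the level of Lcn2 in mouse WT-139 and at 3.23, 2.30 and 2.21 times in the others. Ngp was at 0.156 times the level of Ltf in mouse WT-139, against 0.0411, 0.0794 and 0.0768 times. These are ratios of FPKM within a library, which rescaling the library does not change.

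The calcium-binding S100 proteins, which pair into calprotectin, headed the late genes. S100a8 stood at 19445, 382, 838 and 536 FPKM, and S100a9 at 18028, 272, 1013 and 536 FPKM. In mouse WT-139 they were the genes ranked 1 and 2 of the whole table and together made up 7.03% of its summed FPKM. Ranks in the other mice were 203, 95 and 133 for S100a8 and 278, 69 and 131 for S100a9, so the pair stayed among the more abundant transcripts there. S100a9 was at 0.927, 0.713, 1.21 and 1.00 times the level of S100a8. Both lie on chromosome 3 in mm9, S100a8 from 90472993 to 90473956 on the plus strand and S100a9 from 90496554 to 90499643 on the minus strand. Retnlg, a resistin-like protein of neutrophils, stood at 2073, 24.5, 80.6 and 49.1 FPKM and kept the same order of mice.

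Receptors for bacterial and lipid attractants were present in each mouse. Fpr1, which binds formylated bacterial peptides, stood at 476, 77.5, 105 and 80.0 FPKM. Its relative Fpr2, which binds a wider range of ligands, stood at 604, 13.2, 30.8 and 29.7 FPKM. Fpr2 was thus at 1.27 times the level of Fpr1 in mouse WT-139 and at 0.171, 0.292 and 0.372 times in the others. Ltb4r1, the high-affinity receptor of leukotriene B4, was lower, at 20.8, 1.29, 4.52 and 5.10 FPKM. Trem1, which amplifies inflammatory signalling, stood at 366, 40.5, 67.2 and 38.6 FPKM, and its neighbour Trem3 at 46.9, 3.11, 8.07 and 4.52 FPKM. All 5 receptors were highest in mouse WT-139, and for all but Trem1 mouse WT-140 was the lowest.

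The G-CSF pair differed between mice in the same way. Csf3, the ligand, which stromal, epithelial and myeloid cells make rather than neutrophils alone, stood at 118, 1.14, 6.43 and 2.78 FPKM. Csf3r, its receptor on neutrophils, stood at 183, 7.80, 14.1 and 17.9 FPKM. Both Usp25-/- mice lay between the Usp25+/+ mice in each gene. Of 10 genes listed for signalling from this receptor, limma called 0 between the genotypes, with 1 (Socs3) at an unadjusted p under 0.05. Of the same 10, 1 had a higher and 9 a lower mean log2 level in Usp25-/- mice, and without mouse WT-139 these counts were 3 and 7. The most abundant of the list were Cebpb, at 127, 200, 246 and 208 FPKM, Spi1, at 185, 243, 110 and 148 FPKM, and Socs3. In Cebpb and Spi1 mouse WT-139 lay below mouse WT-140, and Cebpb was the 1 gene with the higher mean. The kinase gene Jak2 stood at 66.7, 9.23, 11.7 and 11.9 FPKM. Of the 10 it had the largest log2 difference between mice WT-139 and WT-140, 2.73, against a list median of 0.63. Socs3, which inhibits signalling from the receptor, stood at 189, 132, 81.3 and 86.7 FPKM, with both Usp25-/- mice below both Usp25+/+ mice (log2 difference -0.90 ± 0.34 SE, limma adjusted p = 0.968).

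Enzymes and interferon-linked genes of the late group had the same mice at the top and the bottom. Hdc, which makes histamine, stood at 287, 13.5, 39.0 and 23.5 FPKM. Mast cells and basophils make histamine too. Of the 9 mast cell and basophil genes, 5 stayed below 1 FPKM in every mouse, Tpsb2 among them at 0, while Mcpt8 stood at 41.1, 17.8, 164 and 55.8 FPKM, an order unlike that of Hdc. The most abundant of the list were the mast cell proteases Mcpt1, at 73.8, 134, 1428 and 592 FPKM, and Mcpt2, at 18.4, 20.7, 167 and 79.5 FPKM, both higher in each Usp25-/- mouse. The list summed to 140.4 and 179 FPKM in WT-139 and WT-140 and to 1762 and 733 FPKM in KO-826 and KO-850. Of the 9 genes 6 were higher and 2 lower in Usp25-/- mice, and limma called 0, with 3 (Mcpt1, Mcpt2 and Mcpt8) at an unadjusted p under 0.05. The part of these cells in the Hdc level was not tested. Padi4, which citrullinates histones in neutrophil extracellular traps, was low, at 9.28, 0.484, 3.01 and 4.07 FPKM. G0s2, an inhibitor of triglyceride lipase, stood at 530, 15.5, 56.3 and 31.0 FPKM. Slfn4, a schlafen gene induced by interferon, stood at 353, 4.39, 11.6 and 10.6 FPKM, and Ifitm6, a membrane protein of the interferon-induced family, at 525, 5.88, 13.3 and 11.1 FPKM. In these 5 genes mouse WT-139 was highest and mouse WT-140 lowest.

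**Figure D1:**
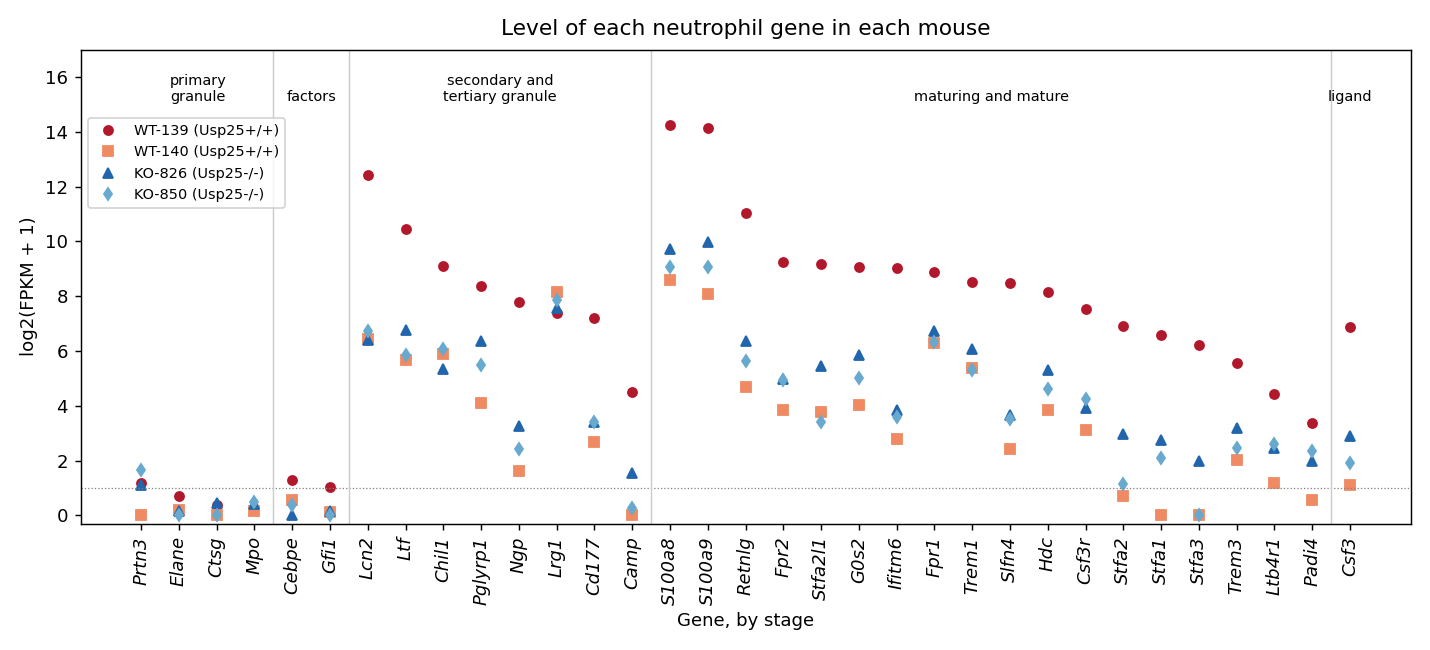
Level of each of the 33 measured genes on a log2(FPKM + 1) axis, in which a point is 1 of the 4 mice, genes run along the horizontal axis by stage and a dotted line marks 1 FPKM. The 4 primary granule genes stay at or below 2.19 FPKM, whereas S100a8 reaches 19445 FPKM in mouse WT-139.

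The stefin A genes, inhibitors of cysteine proteases that neutrophils express, form a cluster of close copies on mouse chromosome 16, the chromosome that also carries Usp25 (77014314 to 77117024 in mm9). Their coding sequences are shown because copies this alike can share reads. The first 120 coding bases are given 5′ to 3′, as 3 copies and then 1 further pair. Capitals mark the bases that differ from Stfa2l1 in Stfa2 and Stfa3, and from each other in Stfa1 and BC100530, an unlisted relative. The sequences come from the Gencode transcripts of mm9.
Stfa2l1: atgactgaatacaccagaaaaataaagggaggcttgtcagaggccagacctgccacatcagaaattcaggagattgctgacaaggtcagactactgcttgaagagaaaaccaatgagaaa
Stfa2: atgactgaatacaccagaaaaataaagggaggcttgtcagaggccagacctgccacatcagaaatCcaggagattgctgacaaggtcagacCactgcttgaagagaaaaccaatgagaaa
Stfa3: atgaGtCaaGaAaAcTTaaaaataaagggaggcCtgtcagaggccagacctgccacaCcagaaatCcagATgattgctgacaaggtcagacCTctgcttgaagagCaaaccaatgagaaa
Stfa1: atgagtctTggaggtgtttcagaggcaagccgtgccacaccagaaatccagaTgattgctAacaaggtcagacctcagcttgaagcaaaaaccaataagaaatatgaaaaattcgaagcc
BC100530: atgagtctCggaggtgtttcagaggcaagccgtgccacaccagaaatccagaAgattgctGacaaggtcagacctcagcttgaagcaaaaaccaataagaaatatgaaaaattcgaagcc

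Within these 120 bases Stfa2 differed from Stfa2l1 at 2 positions and Stfa3 differed from it at 15. Over the whole coding sequence Stfa2 and Stfa2l1 were 98.1% identical, and 75 of 263 windows of 50 bases in each were found unchanged in the other. Stfa1 and BC100530 were 98.0% identical, with 108 of 245 such windows shared. Stfa3 shared 0 windows with any of the 6 relatives compared. How reads that fit several copies were counted is not given in the sources used here, so the levels of Stfa1, Stfa2 and Stfa2l1 are uncertain. Untranslated sequence was not compared. In mm9 Stfa2l1 spans 36156897 to 36162034, Stfa1 36277213 to 36285457, Stfa2 36404037 to 36421006 and Stfa3 36450623 to 36455478.

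Stfa2l1 stood at 572, 12.5, 42.5 and 9.65 FPKM, and Stfa2, its near-identical copy, at 118, 0.632, 6.84 and 1.24 FPKM. Stfa1 stood at 93.9, 0, 5.72 and 3.29 FPKM. Stfa3 had 73.9 FPKM in WT-139 against 2.92 FPKM in KO-826, and was listed at 0 in mice WT-140 and KO-850. All 4 were highest in mouse WT-139 and next highest in mouse KO-826. The lower mice differed in order, with mouse WT-140 above mouse KO-850 in Stfa2l1 and below it in Stfa1 and Stfa2. Whether shared reads have a part in these levels was not tested.

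Compared between the 2 mice of one genotype, most of the middle and late genes differed by far more than other genes did. On the scale of FPKM + 1, mouse WT-139 was at least 2-fold above mouse WT-140 in 27 of 33 measured members, against 9.49% of the 12103 genes tested. It was at least 8-fold above in 24 of 33, 72.7% of the members, against 1.29% of genes tested. Those 24 are 15.4% of the 156 genes that passed 8-fold. They were 16 of 18 late genes, 7 of 8 middle genes and Csf3. The median log2 difference between these mice was 4.51 for middle and 5.41 for late genes, and -0.08 over all genes tested. The 4 early genes could not pass 8-fold on this scale, since at no more than 1.28 FPKM in mouse WT-139 their ratio cannot exceed 2.28-fold, so they are not compared with the later stages here. Among members above 0 in both mice, Retnlg, Ifitm6, Stfa2 and Ngp had the highest ratios, 81.2-, 76.4-, 73.0- and 72.7-fold, and Lrg1 the lowest, 0.593-fold. Mouse WT-139 was the highest of the 4 mice in 29 of 33 members, against 29.7% of genes tested.

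The 2 Usp25-/- mice were much closer to each other. Mouse KO-826 was above mouse KO-850 in 24 of 33 members, against 48.6% of genes tested. It was at least 2-fold above in 4, namely Camp, Stfa2, Stfa2l1 and Stfa3, against 3.88% of genes tested. The median log2 difference was 0.44 over the members and -0.01 over all genes tested. Epithelial genes also differed between these mice. The 5 genes of the epithelial list, Epcam, Cdh1, Krt8, Krt18 and Cldn7, summed to 587 and 567 FPKM in WT-139 and WT-140, against 2496 and 989 FPKM in KO-826 and KO-850. All 5 had a higher mean log2 level in Usp25-/- mice, and limma called 0 of them, with 2 (Krt18 and Cldn7) at an unadjusted p under 0.05. Their part in the level of Lcn2 or Pglyrp1, which epithelium can make, was not tested.

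Between the genotypes no member passed the test. With p adjusted by Benjamini-Hochberg, limma left 0 of 12103 genes under 0.05 (0%), and 400 had an unadjusted p under that value. Of the 28 members tested, 0 were among either. Usp25, the deleted gene, was not called by limma, although its log2 difference (Usp25-/- minus Usp25+/+) was -3.07 ± 0.47 (SE). The lack of a call here therefore does not show that a gene is unchanged. The smallest unadjusted p of a member was 0.151, that of Chil1, and the members' adjusted p ran from 0.968 to 0.998. Mean log2 levels were lower in Usp25-/- mice for 29 of 33 members and higher for 4 (Mpo, Prtn3, Ctsg and Padi4), against 53.6% of genes tested that were higher. The groups overlapped in 30 of 33 members, all of the middle and late ones included. Of the 33, 2 (Elane and Cebpe) were lower in both Usp25-/- mice, against 14.7% of genes tested. Only 1 (Mpo) was higher in both, against 19.0%. These 3 were below 2 FPKM in every mouse and are not among the genes tested, so the shares are of more abundant genes.

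The sign of the difference depended on mouse WT-139. With all 4 mice the median log2 difference, Usp25-/- minus Usp25+/+, was -1.65 for middle and -1.41 for late genes, against 0.03 over all genes tested. Without mouse WT-139 it was 0.68 for middle and 1.12 for late genes, against -0.01. In that comparison 28 of 33 members were higher in Usp25-/- mice, among them 18 of 18 late and 6 of 8 middle genes, against 49.1% of genes tested. Both Usp25-/- mice lay above mouse WT-140 in 23 of 33 members, against 35.7% of genes tested. With mouse WT-140 as the single Usp25+/+ mouse, limma assumed that it varies like the others and called 0 genes, with 643 at an unadjusted p under 0.05, and the smallest adjusted p of a member was 0.775. S100a8 went from -2.02 ± 1.81 (SE) with all mice to 0.81 without mouse WT-139. Retnlg went from -1.85 ± 1.99 to 1.32, and Stfa1 from -0.86 ± 2.06 to 2.42. Chil1 kept its sign, at -1.78 ± 1.06 and -0.18, as did Lrg1 at -0.04 ± 0.40 and -0.42. Padi4 was higher in Usp25-/- mice in both, at 0.21 ± 0.91 and 1.60.

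Leaving out mouse WT-140 had the opposite effect. With mouse WT-139 as the single Usp25+/+ mouse, 30 of 33 members were lower in Usp25-/- mice and 3 higher, against 55.9% of genes tested that were higher. The median log2 difference was -3.70 for middle and -4.21 for late genes, against 0.10 over all genes tested. Middle genes ran from -5.88 for Lcn2 to 0.34 for Lrg1, and late genes from -5.32 for Ifitm6 to -1.19 for Padi4. Any call by limma there assumes that the lone mouse varies like the others. Such a call sets mouse WT-139 against the Usp25-/- mice and not the genotypes.

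**Figure D2:**
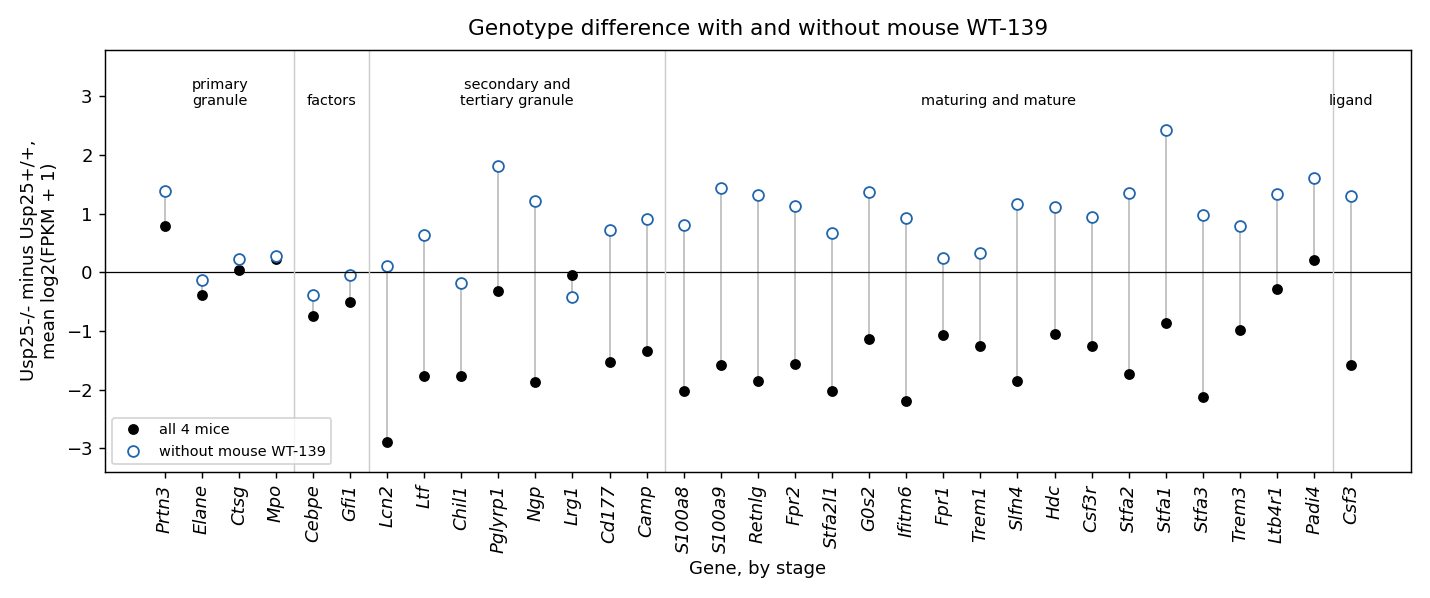
Mean log2(FPKM + 1) in Usp25-/- mice minus that in Usp25+/+ mice on the vertical axis for each of the 33 genes, grouped by stage, with filled points for all 4 mice and open points without mouse WT-139. Late genes such as S100a8 move from -2.02 to 0.81, whereas Mpo, Ctsg and Prtn3 stay above 0 in both.

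The Usp25-/- mice can also be placed on the distance between the 2 Usp25+/+ mice, in FPKM, with mouse WT-140 at 0% and mouse WT-139 at 100%. Over the 26 middle and late genes and Csf3 that were higher in mouse WT-139, mouse KO-826 had a median of 4.39% and mouse KO-850 of 1.45%. Most genes were near these values, such as S100a8 at 2.39% and 0.809% and S100a9 at 4.17% and 1.49%. Padi4 was the farthest up, at 28.7% and 40.7%, followed by Ltb4r1 at 16.6% and 19.5% and Pglyrp1 at 20.9% and 8.77%. Lcn2 was at -0.0717% and 0.329%, and Chil1 at -3.89% and 1.84%. The members thus did not share 1 common proportion across mice.

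**Figure D3:**
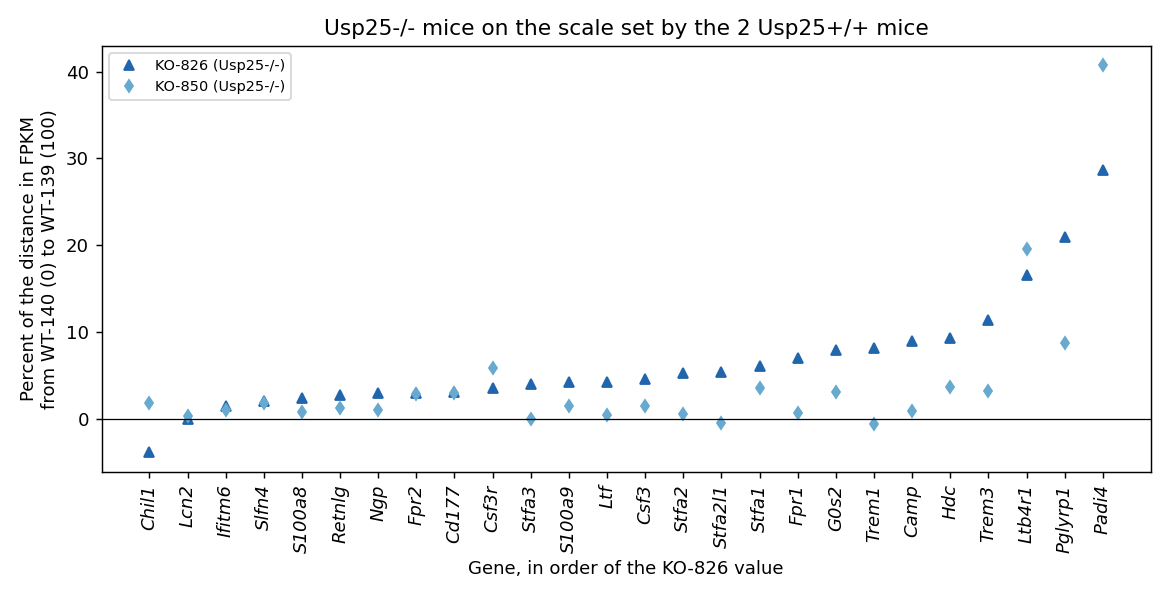
Position of each Usp25-/- mouse, in percent of the distance in FPKM from mouse WT-140 (0) to mouse WT-139 (100), for 26 genes in order of the KO-826 value, where a point is 1 of the 2 mice. Most genes lie near the medians of 4.39% and 1.45%, and Padi4 reaches 28.7% and 40.7%.

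Neutrophil genes outside the members were checked from lists. Of 19 measured genes of mature neutrophils, 13 were at least 8-fold higher in mouse WT-139 than in mouse WT-140, and 15 were highest in mouse WT-139. Their mean log2 level was lower in Usp25-/- mice for 18 and higher for 1, and without mouse WT-139 lower for 5 and higher for 14. Limma called 0 of them, with 0 at an unadjusted p under 0.05, and the list's median difference was -0.99 with all mice and 0.51 without mouse WT-139. Its most abundant members were Wfdc21 at 2052, 446, 832 and 482 FPKM, Msrb1 at 847, 913, 818 and 692 FPKM and Ccrl2 at 1797, 211, 199 and 147 FPKM. Msrb1, a methionine sulfoxide reductase, was therefore level across mice in which Ccrl2, a chemokine-binding receptor, was not.

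Among 12 other granule genes 6 passed 8-fold between mice WT-139 and WT-140. The most abundant of this list were Lyz2 at 12613, 38922, 31444 and 32571 FPKM, Chil3 at 6219, 8777, 8882 and 6380 FPKM and Anxa1 at 842, 506, 1624 and 759 FPKM, none of them highest in mouse WT-139. Lyz2, lysozyme, and Chil3, a chitinase-like protein, are also products of macrophages, and Chil3 is in the macrophage list too. Limma called 0 of the 12, with 1 (Mcpt8) at an unadjusted p under 0.05. There were 4 higher and 8 lower in Usp25-/- mice, and 7 higher and 5 lower without mouse WT-139.

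Monocyte and macrophage genes, which can accompany S100a8, Fpr1 and Trem1, were mixed. Of 14 measured, 0 were at least 8-fold and 2 at least 2-fold higher in mouse WT-139 than in mouse WT-140, and the list's median log2 difference between these mice was -0.25. Mouse WT-139 was the highest in 5 of the 14 (Ly6c2, Csf1r, Adgre1, Marco and Fabp4). Ly6c2, of inflammatory monocytes, stood at 88.0, 22.8, 25.4 and 23.8 FPKM. That is the order of mice seen in S100a8, although the lower mice were close, from 22.8 to 25.4 FPKM. Ccr2, also of inflammatory monocytes, did not have this order, at 3.34, 3.74, 2.08 and 5.29 FPKM. The part of monocytes in the S100a8 level was not tested. Chil3 made up 78.9% to 84.1% of the list's summed level. The other 13 genes summed to 1666, 2174, 1680.2 and 1534 FPKM, with mouse WT-140 the highest. Cd68, a lysosomal protein of macrophages, stood at 333, 874, 331 and 482 FPKM, and Fabp4, a fatty acid binding protein, at 403, 244, 394 and 329 FPKM. Limma called 0 of these genes, with 0 at an unadjusted p under 0.05. There were 4 higher and 10 lower in Usp25-/- mice both with and without mouse WT-139.

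**Figure D4:**
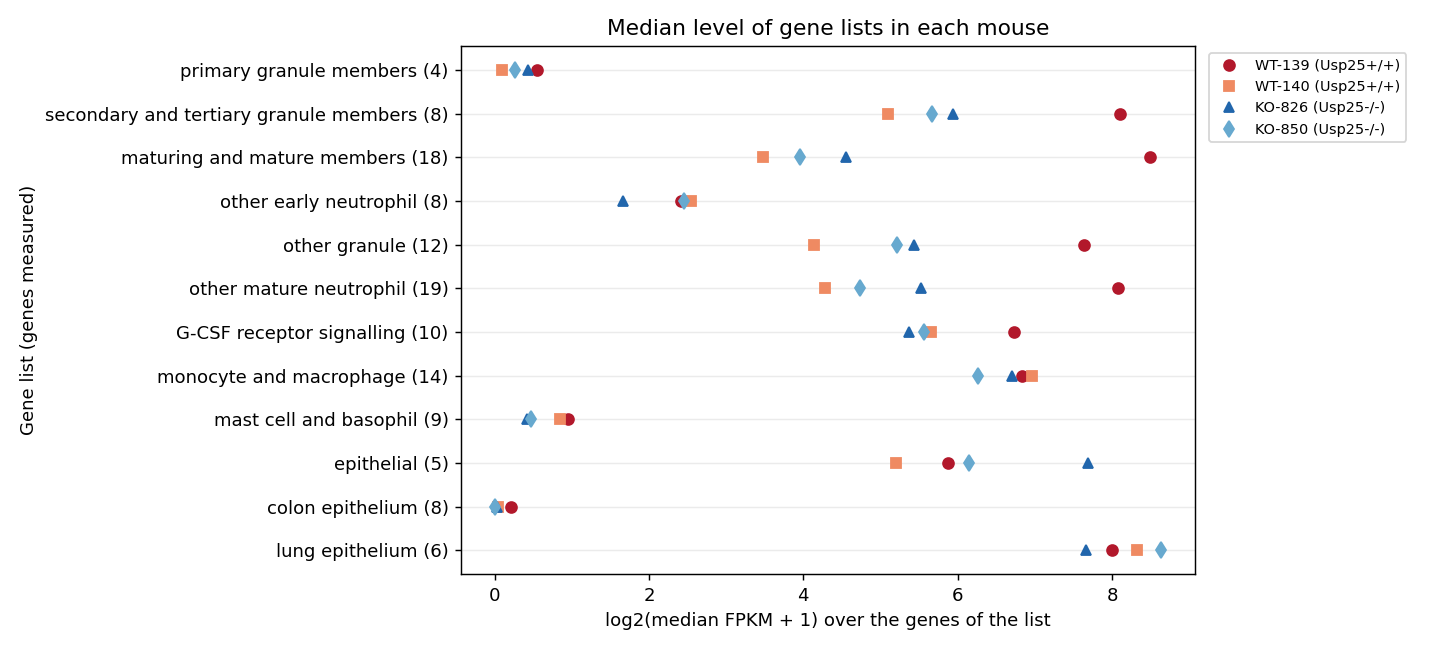
Median level over the genes of each list, as log2(median FPKM + 1) on the horizontal axis, where a point is 1 of the 4 mice and the number of genes measured is in brackets. Mouse WT-139 stands to the right in the middle (median 275 FPKM) and late (median 360 FPKM) members and in other granule and mature neutrophil genes. It does so too in the G-CSF receptor signalling genes, with medians of 105, 49.3, 40.5 and 46.3 FPKM. Mouse WT-139 lies with the other mice below 1 FPKM in primary granule genes, and is not the highest in monocyte and macrophage or epithelial genes.

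Promoter sequence was set beside the stages, since C/EBP factors act on granule genes. The motif TTNNGCAA, a C/EBP core, was searched on both strands in the 250 bases before each RefSeq start (GRCm38.p6 build), with a match on both strands at 1 place counted once. It occurred in 8 of the 31 members with a promoter in the table (25.8%), against 10.8% of 27025 genes. By stage it occurred in 0 of 4 early, 3 of 8 middle (Ltf, Ngp and Lcn2) and 4 of 18 late genes (S100a9, Ly6g, Retnlg and Stfa1), and in Gfi1. A match is a description of these letters and not a binding site. The 120 bases before the start of Ltf, on chr9:111019172-111019291, plus strand, are shown with the motif in capitals, and those of S100a8, on chr3:90668951-90669070, plus strand, as a late gene without a match.
Ltf: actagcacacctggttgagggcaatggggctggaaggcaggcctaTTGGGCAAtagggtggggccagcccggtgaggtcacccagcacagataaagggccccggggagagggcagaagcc
S100a8: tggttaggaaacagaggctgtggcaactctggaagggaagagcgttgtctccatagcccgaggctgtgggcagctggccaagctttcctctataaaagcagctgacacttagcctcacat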

How the data were processed

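Poly(A) RNA from 4 mice labelled colon was sequenced, 2 per genotype. The authors deposited 1 table of FPKM values with 24421 rows and 1 column per mouse. Bowtie 0.12.2 and mm9 are named in the submitters' processing notes. Not given in the sources used here are the tool that made the FPKM values, its annotation, strandedness and filters. Read totals are unknown, so no counting interval is given, and the summed FPKM per mouse ran from 525993 to 565007. A gene at 0 is described as listed at 0.

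Rows with a date for a name (27) were left out. Genes with at least 1 FPKM in at least 2 mice (12103) were tested as log2(FPKM + 1), which understates changes of low genes. Limma 3.58.1 in R 4.3.3 with a mean-variance trend compared the genotypes with a two-sided test, p-values were adjusted by Benjamini-Hochberg across the tested genes, and 0.05 was the threshold. The fit was run on simulated data with known changes. Their recovery was required only where the simulated spread was small, so this does not show the power at the spread of these mice. Each SE is limma's moderated standard error. With 2 mice against 2, an exact permutation test cannot go below p = 0.333. The labels give no litter, batch or pairing, so p-values reflect the spread among these animals alone. Of 33 measured members 28 passed the filter and 5 did not (Mpo, Elane, Ctsg, Gfi1 and Cebpe). Ratios between mice use FPKM + 1. Tables were built with Python 3.11.15 and pandas 2.3.3.

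Members, stages, lists and tests were chosen with earlier results of these data known. Every member is named or counted. The rule for other lists was the count per direction and up to 3 genes with the highest mean. Of 8 colon epithelium genes 3 were higher and 3 lower in Usp25-/- mice, of 6 lung epithelium genes 5 and 1, and of 3 liver genes 2 and 1, with 0 called by limma and 1 (Lgals4) at an unadjusted p under 0.05. Chil3, Mcpt8 and Kit are each in 2 lists. Ms4a3, Prss57, Jak2, Tpsb2, Ly6c2, Ccr2, Csf1r, Adgre1, Marco, Cdh1, Cldn7, Zg16, Aqp8 and BC100530 were chosen after their values were seen. Positions are from Gencode vM1 (mm9), in which 34 of 34 members were placed, Chil1 under an older name. A planned comparison of stefin A proteins was done on coding sequences instead. Alternatives covered the pseudocount, filter, scaling, variance model and leaving out each mouse, with the filter kept as set on all 4.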

Additional observations from a re-analysis of the deposited data

How the results depend on the processing

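No paired analysis was possible because mouse numbers are not shared between the genotypes. Values here are log2 differences, Usp25-/- minus Usp25+/+, and with FPKM alone the depth is unknown. Leaving out each mouse in turn, the number of genes called by limma ran from 0 to 92, members with a higher mean in Usp25-/- mice from 3 (without mouse WT-140) to 28 (without mouse WT-139) of 33, and members with a lower mean from 5 to 30. The median log2 difference ran from -3.70 to 0.68 for middle and from -4.21 to 1.12 for late members. Of 28 tested members 26 changed sign with at least 1 mouse left out. Their log2 differences ran from -4.16 to 0.63 for Ltf, -3.60 to 0.91 for Camp, -4.96 to 1.22 for Ngp, -5.88 to 0.10 for Lcn2, -3.80 to 0.73 for Cd177, -2.44 to 1.81 for Pglyrp1 and -0.42 to 0.34 for Lrg1. In the late group they ran from -4.86 to 0.81 for S100a8, -4.61 to 1.43 for S100a9, -5.02 to 1.32 for Retnlg, -2.82 to 0.32 for Trem1, -2.76 to 0.78 for Trem3, -2.36 to 0.24 for Fpr1, -4.27 to 1.13 for Fpr2, -3.44 to 0.94 for Csf3r and -1.91 to 1.34 for Ltb4r1. They ran from -3.20 to 1.11 for Hdc, -1.19 to 1.60 for Padi4, -4.14 to 2.42 for Stfa1, -4.83 to 1.36 for Stfa2, -4.73 to 0.67 for Stfa2l1, -5.24 to 0.99 for Stfa3, -4.87 to 1.17 for Slfn4, -3.63 to 1.37 for G0s2 and -5.32 to 0.93 for Ifitm6, and from -4.48 to 1.31 for Csf3. The highest of each of these 26 ranges came without mouse WT-139 except for Lrg1, whose highest came without mouse WT-140. With a pseudocount of 0.1 the early members' median was 0.46 and Stfa1, listed at 0 in mouse WT-140, turned to 0.54. With a smaller pseudocount, values near 0 lie farther down on the log2 scale, and a value of 0 enters as log2(0.1) in place of log2(1). Under the other 5 alternatives, no filter, a filter of 5 FPKM, both rescalings and no variance trend, no tested member changed sign and 0 genes were called by limma, where 249 to 571 genes had an unadjusted p under 0.05. The filter of 5 FPKM gave no value for 4 tested members.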

Other observations

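Relatives of the stefin A members in the same cluster on chromosome 16, chosen after their values were seen, had the same mouse at the top. Gm5483 (36184298 to 36188197 in mm9) stood at 943, 8.46, 49.0 and 18.2 FPKM, which put it above each of the 4 listed stefin genes in mouse WT-139. Its coding sequence was 96.9% identical to that of 2010005H15Rik, at 95.8, 3.12, 7.37 and 0.556 FPKM. BC100530 stood at 63.0, 0.514, 2.25 and 0.870 FPKM. Gm5483 and 2010005H15Rik shared 96 of 245 windows of 50 bases, and BC100530 shared 108 of 245 with Stfa1. The levels of these relatives, and the place of Gm5483 above the listed genes, are therefore uncertain as well. Between the genotypes, the log2 difference (Usp25-/- minus Usp25+/+) was -1.61 ± 2.11 (SE) for Gm5483 and -2.47 ± 1.62 for 2010005H15Rik. Limma called neither of them nor BC100530, with an adjusted p of 0.968 for each.

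Granule genes outside the members, named after their values were seen, included several with their highest level in mouse WT-139. Mmp8, neutrophil collagenase, stood at 254, 15.4, 12.9 and 16.8 FPKM, and Mmp9, a gelatinase, at 142, 4.01, 14.0 and 11.7 FPKM. Olfm4, olfactomedin of a subset of neutrophils, stood at 34.8, 0.168, 0.586 and 0.692 FPKM. Itgb2l, an integrin chain, stood at 8.25 and 0.0659 FPKM in WT-139 and WT-140 and 0 in KO-826 and KO-850.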
